A study of Mus musculus with 12 samples.

Results

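Translation initiation factors load the initiator tRNA and the mRNA onto the small ribosomal subunit and find the start codon, and their genes carry the Eif prefix in the mouse. The members described here are all symbols in the count tables that begin with Eif1 to Eif6, without the kinases named Eif2ak, the Y-linked Eif2s3y and pseudogenes named -ps. That rule found 50 of 24046 symbols. Eif3j1 and Eif3j2 held identical counts in all 12 libraries and were counted as 1 measurement, written Eif3j below. Of the resulting 49 measurements, 48 passed the filter on low counts and were tested among 12242 genes. Eif4e1b, a germline relative of the cap-binding protein gene, was at 0 counts in every library and could not be tested; with a floor of 3 counts this allows at most 0.183 to 1.02 CPM (counts brought to the same TMM-scaled library size), for counting error only.

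The cells were sorted follicular (FO) B cells of the mouse spleen, the recirculating B cells that respond to antigen, from 3 Jmjd1c WT and 3 Jmjd1c KO animals. JMJD1C is a member of the JmjC histone demethylase family. Cells of each animal were sequenced at 0 h and after 2 h of anti-IgM, which cross-links the B cell receptor, making 4 groups of 3 libraries, and the labels give each animal a batch number from 1 to 3 that both genotypes share. Not given in the sources used here were how the KO was made, which part of the gene it removes, and the strain, age and sex of the mice. There was no 2 h library without anti-IgM, so time in culture and receptor cross-linking cannot be told apart. In bulk RNA, fewer cells expressing a gene and less RNA per cell cannot be told apart either.

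Total counts were between 5666013 and 14153396 per library. Rn45s, the ribosomal RNA precursor, took 52.3% of the counts of KO 2 h replicate 1 and 24.8% of WT 2 h replicate 1, both of batch 1, 12.9% to 15.5% in all 4 batch 2 libraries, and at most 1.09% in the other 6. The same KO library also had the highest summed levels of the dividing cell markers (981 CPM, against 38.5 to 272 CPM in the WT libraries and 44.8 to 192 CPM in the other KO libraries) and of the neutrophil markers (536 CPM, against at most 140 CPM elsewhere). All 12 B cell markers were detected, with sums of 14175 to 15158 CPM at 0 h and 10461 to 13473 CPM at 2 h, and the T cell marker sum was at most 269 CPM. The plasma cell markers, 7 of them in the files, summed to 613 to 690 CPM in WT at 0 h and 1960 to 2340 CPM at 2 h, and to 603 to 742 CPM, then 1071 to 2617 CPM in KO, without overlap between times. Of the 6 tested, 2 were called higher and 1 lower at 2 h in WT, and 1 higher and 0 lower in KO; the part of these markers in the changes below was not tested. Jmjd1c was at 360, 326 and 289 CPM in WT and 231, 236 and 197 CPM in KO at 0 h, and at 322, 295 and 270 CPM against 208, 213 and 199 CPM at 2 h. The KO libraries were below the WT libraries at both times, and neither difference passed the test (log2 difference -0.56 ± 0.13 SE, adjusted p = 0.9999, and -0.52 ± 0.13, adjusted p = 0.887).

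As background, initiation begins when eIF2 carries the initiator tRNA to the small subunit, where eIF1, eIF1A, eIF3 and eIF5 assemble around it. The cap-binding complex eIF4F, made of the cap-binding protein eIF4E, the scaffold eIF4G and the helicase eIF4A, brings in the mRNA. eIF2 leaves bound to GDP and is recharged by eIF2B, and eIF5B joins the large subunit. Resting B cells make little protein, and activation through the B cell receptor is known to raise translation and to induce Myc, a transcription factor whose known targets include translation factor genes. The initiation step is restrained by 4E-binding proteins, which mTORC1 inactivates, and by kinases that phosphorylate eIF2.

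Part of the initiation factor genes rose with anti-IgM in both genotypes, and none was called lower in the fit of all 12 libraries. In WT, 19 of 48 members were higher at 2 h and 0 were lower at an adjusted p under 0.05, with 29 not called, against 19.8% of all tested genes called, 10.7% higher and 9.06% lower. In KO, 25 of 48 were higher and 0 lower, against 27.1% of all tested genes, 14.1% higher and 13.0% lower. The median log2 change of the members was 0.33 in WT and 0.42 in KO, and that of all tested genes was 0.01 and 0.04. Members called in both genotypes numbered 18, which is 94.7% of the WT calls and 72.0% of the KO calls. All members together made up 7270 to 8213 CPM in the 0 h libraries and 9071 to 11641 CPM in the 2 h libraries, with no overlap. The libraries of the 2 times did not overlap for 36 of 48 members in WT (43.9% of all tested genes), 33 higher and 3 lower at 2 h (21.3% and 22.7%), and for 28 of 48 in KO (37.5%), 27 higher and 1 lower (17.9% and 19.6%). Leaving out 1 library moved the WT count by over 1.5 times in 3 cases: it was 12 after removal of replicate 3 of WT 0 h, replicate 2 of WT 2 h or replicate 3 of WT 2 h. A fit of only the 2 KO groups gave 16 members higher and 0 lower, and one of only the 2 WT groups gave 24 higher and 1 lower, Eif4e3.

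Within animals, 28 of 48 members were higher at 2 h in all 6, 1 was lower in all 6 and 19 were mixed, against 18.5% of all tested genes higher and 22.5% lower in all 6. The median change of the members, as log2 of CPM with 0.5 added, was 0.14, 0.42 and 0.42 in the WT animals of batches 1 to 3 and 0.29, 0.44 and 0.42 in the KO animals, against -0.03 to 0.02 for all tested genes. Batch 1 of each genotype thus had the smallest median, and its 2 h libraries were those with the most Rn45s; the part of this in the changes was not tested. Without both 2 h libraries of batch 1, the WT counts were 26 higher and 1 lower and the KO counts 28 higher and 2 lower. The 3 calls of lower level were Eif4e3 in both genotypes and Eif3f in KO.

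**Figure D1:**
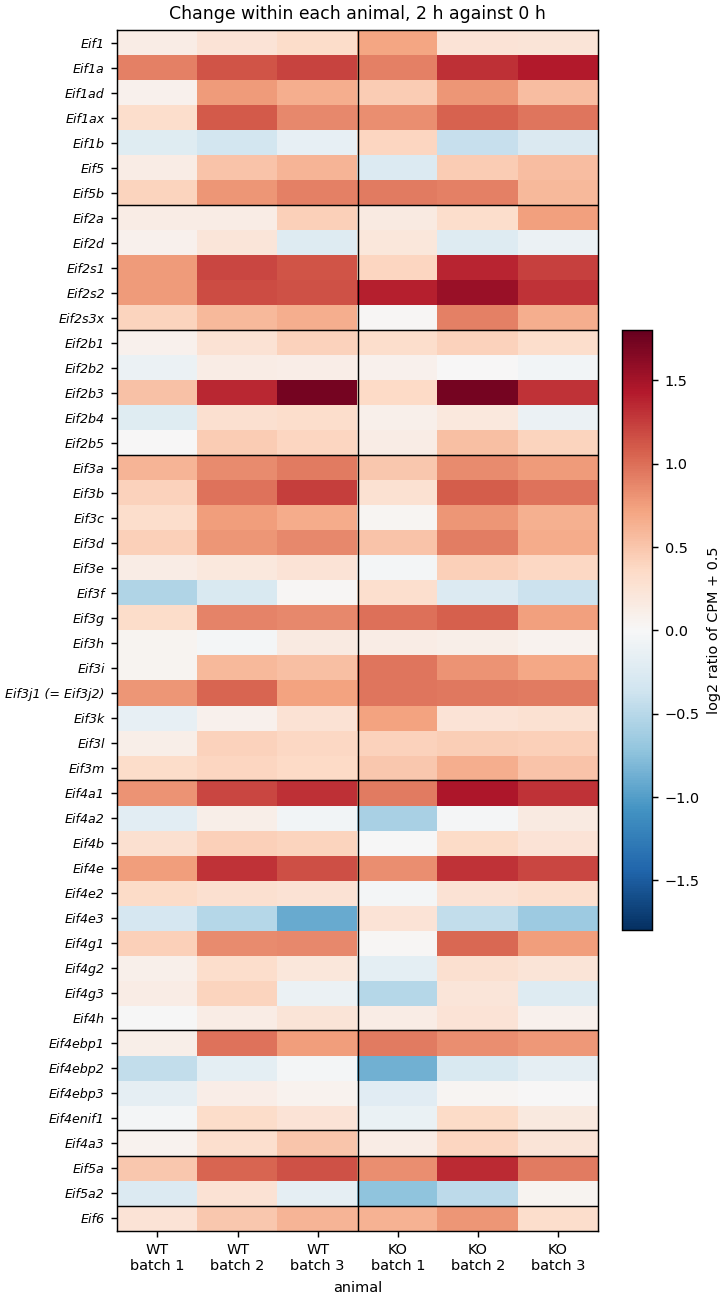
Change of each tested member between 2 h and 0 h within each of the 6 animals, as the log2 ratio of CPM with 0.5 added (red higher, blue lower at 2 h), with black lines between complexes and genotypes. Rows such as Eif1a, Eif2s2, Eif4a1 and Eif4e are red in all 6 animals, Eif4ebp2 is blue in all 6, and both batch 1 columns are paler than the others for Eif2b3.

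The members differed widely in level. Per kilobase of exon in WT at 0 h, Eif5a was the most abundant at 117 ± 12.9 CPM per kb (SD, n = 3), followed by Eif4a2 (105 ± 11.7), Eif3f (101 ± 6.99) and Eif3h (96.0 ± 3.48). Neighbours in this order lay within their SDs. Next came Eif3c (81.9 ± 1.68), Eif4g2 (81.5 ± 3.005) and Eif4b (80.8 ± 1.57), which did not differ beyond their spread. At the bottom were Eif4ebp1 (4.79 ± 0.586), Eif2d (3.28 ± 0.598), Eif5a2 (2.87 ± 0.453) and Eif2b3 (1.998 ± 0.239 CPM per kb). This order depends on the merged length of all annotated exons, and other lengths were not tried. Before division by length, Eif2d (24.2 CPM) was above Eif4ebp3 (20.7 CPM, or 27.8 CPM per kb). Eif2b3 (13.0 CPM) was likewise above Eif4ebp1 (10.5 CPM). The cap-binding gene Eif4e, at 6.22 ± 0.107 CPM per kb, was far below Eif4a2 and also below the scaffold gene Eif4g1 (63.1 ± 7.60). No level per length is given for Eif3j, because the identical counts belong to gene models of different length. In WT at 2 h, Eif5a was at 220 ± 49.3, Eif3b at 137 ± 30.8, Eif3c at 123 ± 18.3 and Eif4a1 at 123 ± 20.2 CPM per kb, the last 3 within each other's SD.

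Start codon selection is the work of eIF1 and eIF1A, which keep the scanning subunit open, eIF5, which stimulates GTP hydrolysis on eIF2, and eIF5B. The 7 genes grouped here include Eif1ad, whose protein has an eIF1A-like domain and is not one of these factors. Of the 7, 4 rose in WT and 5 in KO. The median log2 changes were 0.51 and 0.62, both the values of Eif1ad. This and the later counts by complex stand against 10.7% of all tested genes called higher in WT and 14.1% in KO. Eif1a was at 56.6, 63.3 and 57.5 CPM in WT at 0 h and at 106, 140 and 135 CPM at 2 h. In KO it was at 65.1, 70.2 and 58.0 CPM, then at 122, 176 and 157 CPM. The times did not overlap in either genotype, and Eif1a rose by 1.10 ± 0.15 in WT (adjusted p = 0.000715) and 1.24 ± 0.15 in KO (adjusted p = 0.000271). Its X-linked copy Eif1ax was at 39.1, 32.9 and 35.4 CPM in WT at 0 h and at 49.0, 71.1 and 65.2 CPM at 2 h. KO libraries held 44.5, 34.6 and 38.2 CPM of Eif1ax at 0 h and 79.2, 72.9 and 75.6 CPM at 2 h. All 3 KO libraries at 2 h were above the 3 WT libraries for Eif1ax, with log2 rises of 0.79 ± 0.15 and 0.95 ± 0.15 in WT and KO. The count ratio per kb of Eif1a to Eif1ax was higher at 2 h than at 0 h in each of the 6 animals, from 1.83, 2.43 and 2.05 to 2.73, 2.48 and 2.61 in WT and from 1.85, 2.56 and 1.92 to 1.95, 3.05 and 2.62 in KO. The smallest steps were those of the WT animal of batch 2 and the KO animal of batch 1, and the ranges of the 2 times overlapped.

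Eif5b, whose protein joins the ribosomal subunits, was at 261, 249 and 209 CPM in WT at 0 h and 344, 431 and 389 CPM at 2 h. KO libraries were at 309, 249 and 239 CPM, then 589, 466 and 357 CPM, with the highest value in KO 2 h replicate 1. It rose by 0.70 ± 0.19 in WT and 0.82 ± 0.19 in KO. Eif1ad, which encodes a protein with an eIF1A-like domain, was at 71.9, 63.5 and 56.3 CPM in WT at 0 h and 76.2, 109 and 88.8 CPM at 2 h. Its KO values were 63.6, 63.8 and 61.4 CPM, then 87.3, 111 and 90.3 CPM, and the rises were 0.51 ± 0.15 and 0.62 ± 0.15. In WT the calls of Eif1ad and Eif5b were both lost without WT 0 h replicate 2, WT 0 h replicate 3, WT 2 h replicate 2 or WT 2 h replicate 3. The WT count over all tested genes also fell with these removals, from 2419 to 1872, 1492, 1349 and 1551. Eif1 passed the test in KO alone (0.42 ± 0.14, adjusted p = 0.0465), from 152, 146 and 144 CPM to 249, 173 and 169 CPM. Without KO 2 h replicate 1, which held the 249 CPM, Eif1 was no longer called in KO, and it was called there in 6 of 22 alternatives. WT libraries held 147, 134 and 133 CPM of Eif1 at 0 h and 162, 159 and 168 CPM at 2 h. Eif1b, a close relative of Eif1, was at 31.7, 34.0 and 31.5 CPM in WT at 0 h and 27.2, 27.0 and 28.4 CPM at 2 h, and in KO at 30.0, 33.4 and 37.5 CPM, then 39.3, 25.0 and 31.2 CPM. Eif1b was not called in either genotype. In each of the 6 animals the ratio of Eif1 to Eif1b was higher at 2 h.

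**Figure D2:**
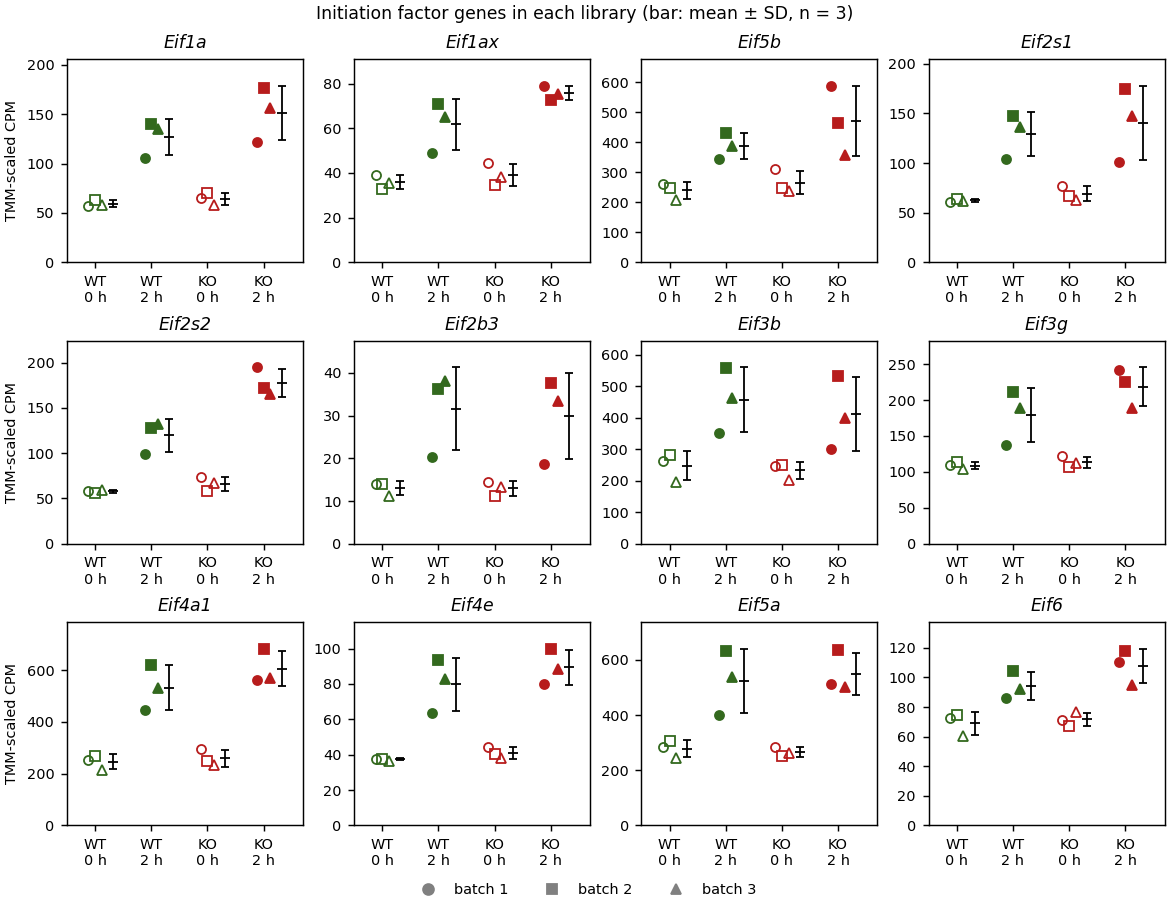
TMM-scaled CPM of 12 members in each library at 0 h (open) and 2 h (filled), in WT (green) and KO (red), with marker shape for the batch and a bar for the mean ± SD of the 3 libraries. The 2 h libraries lie above the 0 h libraries of the same genotype in all 12 panels, and for Eif2s2 the 3 KO libraries at 2 h (165 to 195 CPM) also lie above the 3 WT libraries (99.1 to 132 CPM).

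Among the initiator tRNA carriers, the alpha and beta subunit genes of eIF2 rose in both genotypes and Eif2a rose in KO. Of 5 genes, 2 were higher in WT and 3 in KO, with medians of 0.54 and 0.49. Eif2s1, the alpha subunit that stress kinases phosphorylate, was at 61.1, 63.7 and 62.1 CPM in WT at 0 h and 104, 147 and 136 CPM at 2 h. The KO values were 77.1, 67.1 and 62.3 CPM, then 101, 175 and 147 CPM. The times were apart in both genotypes, and Eif2s1 rose by 1.05 ± 0.19 in WT and 1.04 ± 0.19 in KO. Eif2s2, the beta subunit, was at 58.4, 56.3 and 59.4 CPM in WT at 0 h and 99.1, 128 and 132 CPM at 2 h. The KO libraries held 73.6, 58.4 and 66.8 CPM, then 195, 172 and 165 CPM with no overlap between times. It rose by 1.05 ± 0.13 in WT (adjusted p = 0.0005) and by 1.42 ± 0.13 in KO (adjusted p = 7.5e-05).

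Eif2s3x, the X-linked gamma subunit gene, was at 29.3, 22.0 and 18.4 CPM in WT at 0 h and 38.8, 33.2 and 29.4 CPM at 2 h. Its KO libraries held 30.6, 18.7 and 15.8 CPM, then 31.1, 35.4 and 25.0 CPM. Neither change was called (0.54 ± 0.25 and 0.49 ± 0.25), and with the batch number as a block both were. The batch 1 libraries were highest at 0 h in both genotypes. The Y-linked partner Eif2s3y, looked at after its values were seen, was at 0 to 7.45 CPM in the 4 batch 1 libraries and at 71.3 to 127 CPM in the other 8. Within batch 1 it was at 0 (KO) and 0.0794 CPM (WT) at 0 h, and 7.45 (KO) and 2.66 CPM (WT) at 2 h. Batch number may therefore coincide with sex, which was not given, and the part of sex in differences between batches was not tested. Eif2a, an alternative tRNA carrier separate from eIF2, was called in KO alone (0.40 ± 0.12). It was at 63.6, 60.4 and 47.0 CPM in KO at 0 h and 71.1, 75.3 and 78.9 CPM at 2 h, and at 55.2, 52.7 and 51.3 CPM, then 61.0, 58.1 and 69.1 CPM in WT. The KO call was lost without KO 0 h replicate 2 or 3, KO 2 h replicate 2 or 3 or WT 0 h replicate 2. Eif2d, another such factor, had changes of 0.01 and -0.04 and overlapping libraries.

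eIF2B is the exchange factor that recharges eIF2, with a catalytic epsilon subunit (Eif2b5), a gamma subunit (Eif2b3) and a regulatory core of alpha, beta and delta (Eif2b1, Eif2b2 and Eif2b4). The gamma subunit gene moved most: 1 of 5 genes rose in WT and 3 in KO, with medians of 0.26 and 0.35. With 10.7% of all tested genes called higher in WT, the WT count is near the background and is no result about eIF2B. Eif2b3 was at 13.98, 13.9 and 11.2 CPM in WT at 0 h and 20.4, 36.3 and 38.1 CPM at 2 h. In KO it was at 14.4, 11.1 and 13.3 CPM, then at 18.6, 37.7 and 33.5 CPM. The times did not overlap, but both batch 1 libraries at 2 h were below the others, and the within-animal changes were 0.53 and 0.36 in batch 1 against 1.30 to 1.72 in the other 4 animals. Across the libraries of each genotype it rose by 1.28 ± 0.27 (adjusted p = 0.00712) and 1.23 ± 0.27 (adjusted p = 0.00704). Eif2b5 was at 70.3, 65.5 and 67.0 CPM in KO at 0 h and 77.2, 95.3 and 88.5 CPM at 2 h, and at 73.8, 67.6 and 67.3 CPM, then 74.3, 93.2 and 87.6 CPM in WT. Eif2b1 was at 28.9, 28.5 and 28.7 CPM in KO at 0 h and 35.9, 37.9 and 35.9 CPM at 2 h, and at 27.2, 28.6 and 26.4 CPM, then 28.8, 34.3 and 35.2 CPM in WT. Both were called in KO (0.37 ± 0.11 and 0.35 ± 0.10) and missed the threshold in WT (0.29 ± 0.11 and 0.26 ± 0.10). Both KO calls were lost without each KO 0 h library or KO 2 h replicate 2, and that of Eif2b5 also without KO 2 h replicate 3 or WT 0 h replicate 2. Eif2b2 and Eif2b4 had log2 changes of at most 0.13, with intervals that spanned 0.

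eIF3 is the largest of the factors and bridges the small subunit, eIF2 and eIF4G. Of 13 measured subunit genes, 6 rose in WT and 9 in KO, with medians of 0.40 and 0.55. Calls in both genotypes covered Eif3a, Eif3b, Eif3c, Eif3d, Eif3g and Eif3j. The subunit genes were not alike in WT. Eif3a, Eif3b and Eif3c rose there by 0.80 ± 0.14, 0.89 ± 0.23 and 0.59 ± 0.17. Eif3e, Eif3f, Eif3h and Eif3k had WT values of 0.19, -0.26, 0.06 and 0.07. In KO the contrast was weaker, with Eif3a, Eif3b and Eif3c at 0.70, 0.82 and 0.51. Eif3e, Eif3f, Eif3h and Eif3k had KO values of 0.25, -0.08, 0.10 and 0.44 and were not called in either genotype. The KO value of Eif3k (adjusted p = 0.0722) was near that of Eif3l (0.43), which was called. The difference between these subunits was not tested. The WT call of Eif3c was lost without each WT 0 h library in turn, WT 2 h replicate 2 or WT 2 h replicate 3, and its KO call without each 0 h library of either genotype, KO 2 h replicate 2 or 3 or WT 2 h replicate 3. Eif3j, a loosely attached subunit, was at 17.7, 19.1 and 19.3 CPM in WT at 0 h and 30.9, 40.1 and 32.4 CPM at 2 h. KO libraries were at 23.7, 24.1 and 17.1 CPM, then 46.7, 47.1 and 33.1 CPM. It rose by 0.88 ± 0.18 and 0.96 ± 0.18 with no overlap of times.

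Eif3g, an RNA-binding subunit linked to scanning, was at 109, 113 and 104 CPM in WT at 0 h and 137, 211 and 189 CPM at 2 h. The KO values were 122, 107 and 113 CPM, then 242, 225 and 189 CPM, and the rises were 0.72 ± 0.16 and 0.94 ± 0.16. Eif3b was at 264, 283 and 195 CPM in WT at 0 h and 353, 559 and 461 CPM at 2 h. Its KO libraries were at 248, 250 and 203 CPM, then at 300, 533 and 399 CPM. For Eif3b the batch 1 library was the lowest at 2 h in both genotypes, and the WT call was lost without WT 0 h replicate 1, WT 0 h replicate 3, WT 2 h replicate 2 or WT 2 h replicate 3. The KO call of Eif3b was lost without KO 0 h replicate 1, KO 0 h replicate 3 or KO 2 h replicate 2. Eif3i, a WD-repeat subunit that binds Eif3b, was at 101, 95.3 and 92.3 CPM in WT at 0 h and 105, 142 and 134 CPM at 2 h. The KO libraries held 103, 87.3 and 98.2 CPM, then 200.4, 154 and 158 CPM. Eif3i rose in KO (0.83 ± 0.14, adjusted p = 0.00159) and missed the threshold in WT (0.40 ± 0.14, adjusted p = 0.0677).

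Promoter windows of an eIF3 gene that rose (Eif3a) and of one that was not called (Eif3f) are given to show where they hold CACGTG, the E-box letters that Myc is known to bind. The motif reads the same on both strands and was searched for in the 250 bases before each RefSeq start (GRCm38.p6). It was found in 9 of the 38 members in the table (23.7%), against 6.86% of 27025 genes. The 2 shares are of unlike sets, because the 27025 include genes that were not tested here. No share was computed over the tested genes alone. By response it was in 3 of 14 members called higher in both genotypes (21.4%), in 3 of 21 called in WT or KO (14.3%) and in 6 of 17 called in neither (35.3%). A match is a description of the letters and not a binding site. The Eif3a window at chr19:60790694-60790943 (minus strand) holds no copy, and the Eif3f window at chr7:108934165-108934414 (plus strand) holds 1, in capitals, that begins 68 bases before the start. Each is given from 5′ to 3′.
Eif3a: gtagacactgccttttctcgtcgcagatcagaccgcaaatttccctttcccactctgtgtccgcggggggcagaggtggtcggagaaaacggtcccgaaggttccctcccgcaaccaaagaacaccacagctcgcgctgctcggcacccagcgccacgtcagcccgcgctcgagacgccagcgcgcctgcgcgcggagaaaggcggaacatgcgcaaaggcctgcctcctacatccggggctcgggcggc
Eif3f: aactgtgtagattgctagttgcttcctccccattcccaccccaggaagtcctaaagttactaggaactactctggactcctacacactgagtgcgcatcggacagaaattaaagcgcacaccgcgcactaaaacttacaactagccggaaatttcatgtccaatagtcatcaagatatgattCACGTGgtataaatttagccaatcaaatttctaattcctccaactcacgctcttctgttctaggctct
Eif3a was at 406, 436 and 372 CPM in WT at 0 h and 619, 787 and 709 CPM at 2 h, and at 453, 432 and 382 CPM, then 634, 778 and 646 CPM in KO. Eif3f was at 311, 298 and 271 CPM in WT at 0 h and 214, 246 and 274 CPM at 2 h, and at 302, 266 and 306 CPM, then 373, 224 and 233 CPM in KO. In this pair, picked after its values were seen, the gene without the motif was the one that rose. A relation between motif and response was not tested. Eif3f libraries overlapped between times in both genotypes, with 1 high value in KO 2 h replicate 1.

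**Figure D3:**
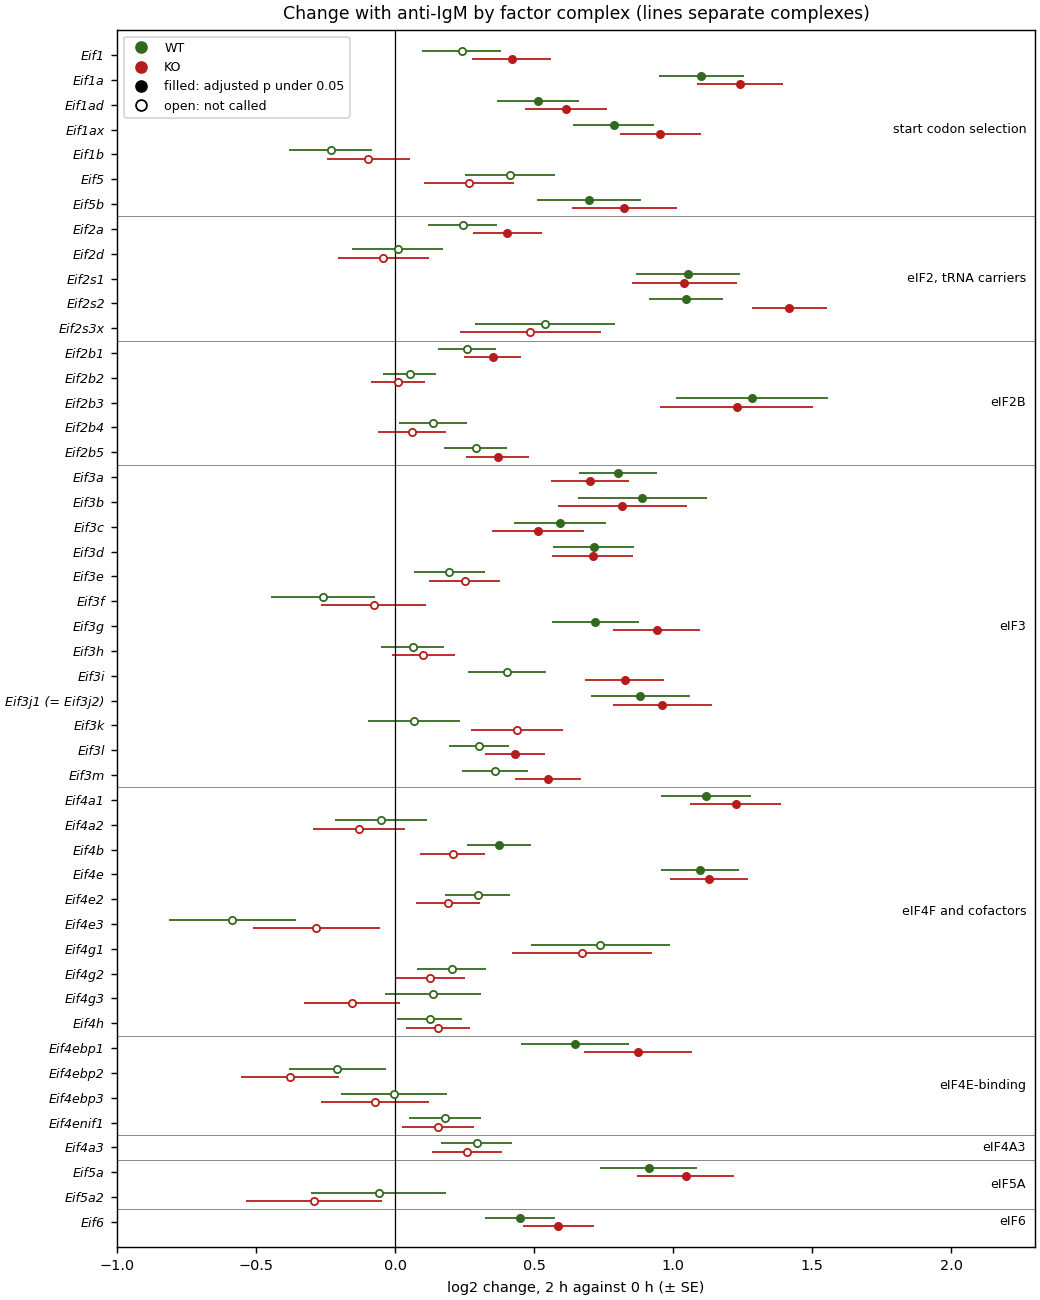
Log2 change between 2 h and 0 h (horizontal axis, ± SE) of the 48 tested members, ordered by complex, in WT (green) and KO (red), with filled points for an adjusted p under 0.05. Filled points lie to the right of 0 in both genotypes, with Eif2b3, Eif1a, Eif4a1, Eif4e, Eif2s1 and Eif2s2 above 1 in both, and 0 filled points lie to the left.

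In eIF4F, 1 gene for the helicase and 1 for the cap-binding protein rose while their relatives did not pass the test. Of 10 tested genes of eIF4F and its helicase cofactors, 3 rose in WT and 2 in KO, with medians of 0.25 and 0.17. With 10.7% of all tested genes called higher in WT and 14.1% in KO, these counts are no result about the complex. Eif4a1, one of the genes for the eIF4A helicase, was at 254, 269 and 213 CPM in WT at 0 h and 444, 619 and 532 CPM at 2 h. Its KO libraries held 294, 250.3 and 232 CPM, then 560.2, 682 and 571 CPM. All 2 h libraries were above all 0 h libraries, and Eif4a1 rose by 1.12 ± 0.16 in WT (adjusted p = 0.000916) and 1.22 ± 0.16 in KO (adjusted p = 0.000402). Eif4a2, the gene of a closely related helicase, was at 583, 488 and 605 CPM in WT at 0 h and 511, 523 and 583 CPM at 2 h. KO libraries held 663, 549 and 609 CPM, then 440.4, 540 and 682 CPM. The times overlapped for Eif4a2, with log2 changes of -0.05 (95% interval -0.41 to 0.31) in WT and -0.13 (-0.49 to 0.23) in KO.

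The ratio of Eif4a1 to Eif4a2 within a library does not depend on the scaling of libraries. As counts per kb it was 0.536, 0.68 and 0.433 in WT at 0 h and 1.07, 1.46 and 1.12 at 2 h. In KO it was 0.546, 0.562 and 0.47, then 1.57, 1.56 and 1.03. Per kb, Eif4a2 was thus the more abundant of the pair in all 6 libraries at 0 h and Eif4a1 in all 6 at 2 h. Without division by length, the 2 h ratios were 0.869, 1.18 and 0.913 in WT and 1.27, 1.26 and 0.836 in KO. Which gene led at 2 h therefore depends on the exon lengths used, while the rise of the ratio does not. Their promoter windows are given because the pair moved apart: the Eif4a1 window at chr11:69672424-69672673 (minus strand) holds CACGTG in capitals, beginning 189 bases before the start, and the Eif4a2 window at chr16:23107218-23107467 (plus strand) holds none.
Eif4a1: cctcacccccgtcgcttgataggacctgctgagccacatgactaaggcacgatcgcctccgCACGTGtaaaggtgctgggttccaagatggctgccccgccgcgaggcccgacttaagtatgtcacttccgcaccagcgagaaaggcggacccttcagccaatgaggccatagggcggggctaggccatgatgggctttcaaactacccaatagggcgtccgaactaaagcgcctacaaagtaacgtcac
Eif4a2: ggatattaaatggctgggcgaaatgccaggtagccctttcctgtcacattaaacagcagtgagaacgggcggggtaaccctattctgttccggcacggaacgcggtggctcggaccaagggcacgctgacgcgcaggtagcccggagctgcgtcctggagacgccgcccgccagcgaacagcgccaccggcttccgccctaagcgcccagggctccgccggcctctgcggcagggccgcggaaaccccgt
Here the motif lies before the gene that rose, unlike in the eIF3 pair, and both windows are RefSeq sequence of GRCm38.p6. The windows of both pairs were picked with the changes known, so nothing about motif and response is read from them. No window was held for Eif1a, Eif2b3, Eif4ebp1 or Eif6, which were called in both genotypes.

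Eif4e, which encodes the main cap-binding protein, was at 37.8, 37.6 and 36.6 CPM in WT at 0 h and 63.8, 93.4 and 82.7 CPM at 2 h. In KO it was at 44.5, 40.4 and 38.1 CPM, then at 79.9, 99.9 and 88.4 CPM. It rose by 1.10 ± 0.14 (adjusted p = 0.00051) and 1.13 ± 0.14 (adjusted p = 0.000281). Eif4e2, which encodes a cap-binding homologue tied to repression, was at 75.3, 85.9 and 80.3 CPM in WT at 0 h and 95.4, 105 and 96.3 CPM at 2 h, and at 79.8, 85.9 and 76.97 CPM, then 77.9, 103 and 94.6 CPM in KO. It did not pass the test (0.30 ± 0.12 and 0.19 ± 0.12). Eif4e3, another homologue, was at 14.2, 14.96 and 15.4 CPM in WT at 0 h and 11.5, 10.4 and 8.01 CPM at 2 h. KO libraries were at 13.9, 12.7 and 15.5 CPM, then 16.6, 9.18 and 9.66 CPM. The WT times were apart and the KO times overlapped through KO 2 h replicate 1. Its changes of -0.59 ± 0.23 and -0.28 ± 0.23 were not called, and without KO 2 h replicate 1 they were called at -0.59 (adjusted p = 0.0141) in WT and -0.58 (adjusted p = 0.025) in KO. Per kb the ratio of Eif4e to Eif4e2 was 0.547 to 0.695 at 0 h and 0.835 to 1.28 at 2 h, and that of Eif4e to Eif4e3 was 0.993 to 1.34 and 2.02 to 4.56.

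The scaffold gene Eif4g1 was at 448, 521 and 412 CPM in WT at 0 h and 606, 943 and 756 CPM at 2 h. KO libraries held 428, 464 and 387 CPM, then 435, 948 and 651 CPM. The WT times were apart, and the KO times overlapped because KO 2 h replicate 1 stayed near the 0 h level. Its changes of 0.74 ± 0.25 (adjusted p = 0.0602) and 0.67 ± 0.25 (adjusted p = 0.0683) were not called, and both were without KO 2 h replicate 1 (adjusted p = 0.0103 in WT and 0.00521 in KO). Eif4g2, whose product lacks the eIF4E-binding region, was at 856, 796 and 835 CPM in WT at 0 h and 913, 991 and 959 CPM at 2 h, and at 895, 836 and 810.3 CPM, then 793, 1025 and 952 CPM in KO. Eif4g3, another scaffold gene, was at 262, 242 and 322 CPM in WT at 0 h and 288, 320.3 and 299 CPM at 2 h, and at 262, 246 and 299.5 CPM, then 182, 286 and 256 CPM in KO. Neither was called in either genotype. Eif4b, an eIF4A cofactor, was called in WT alone (0.37 ± 0.12, adjusted p = 0.0416), from 363, 367 and 353 CPM to 443, 493 and 465 CPM. The KO values were 361, 349 and 360.2 CPM, then 358, 445 and 430 CPM (0.21 ± 0.12), and the WT call was lost in 11 of 22 alternatives, among them each left-out WT or KO 0 h library and each left-out WT 2 h library. Eif4h, another cofactor, had changes of 0.12 and 0.15 and was not called.

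**Figure D4:**
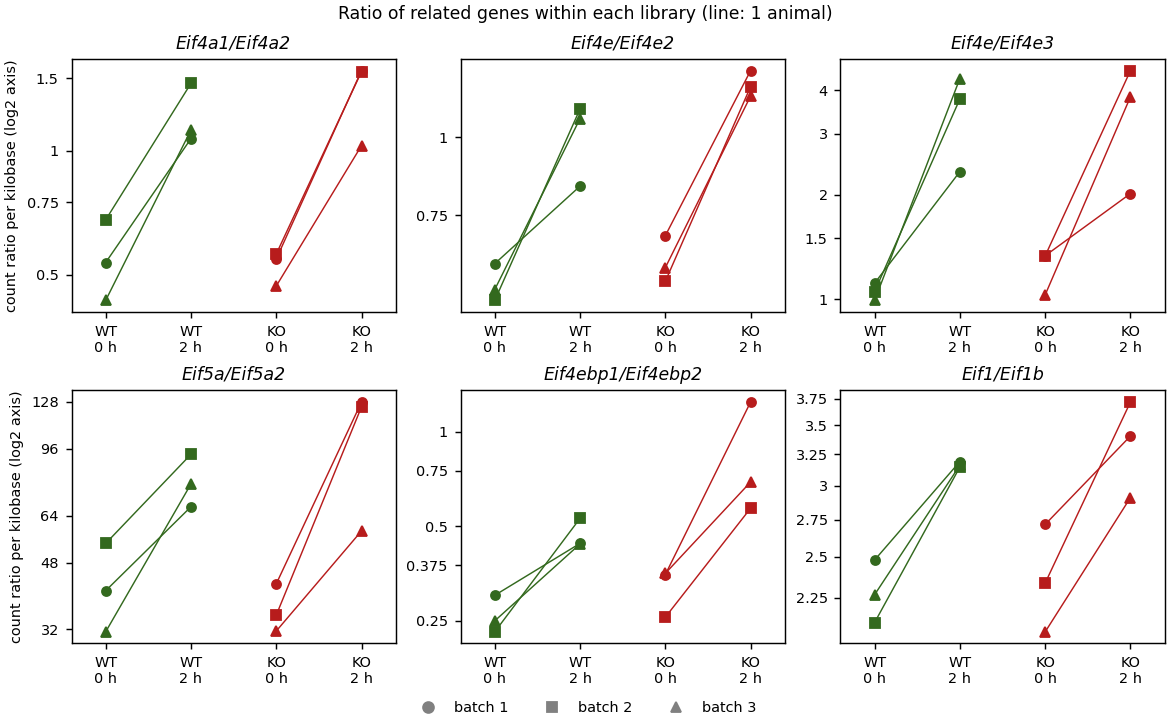
Ratio of counts per kilobase between related genes in each library (log2 axis), with a line joining the 0 h and 2 h libraries of an animal and marker shape for the batch. The Eif4a1 to Eif4a2 ratio is below 1 in all 6 libraries at 0 h and above 1 in all 6 at 2 h, and every line rises in all 6 panels.

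Among the 4E-binding repressors, 1 of 4 genes rose in each genotype, with medians of 0.09 and 0.04. All tested genes had medians of 0.01 and 0.04, with 10.7% called higher in WT and 14.1% in KO. The count is thus near the background and is no result about the group. Eif4ebp1 was at 11.99, 9.65 and 9.89 CPM in WT at 0 h and 12.9, 19.6 and 16.96 CPM at 2 h. Its KO libraries held 11.97, 9.62 and 12.7 CPM, then 23.4, 17.6 and 22.2 CPM. It rose by 0.65 ± 0.20 in WT (adjusted p = 0.0369) and 0.87 ± 0.20 in KO (adjusted p = 0.00708), and the WT call was lost without KO 0 h replicate 1 and without each WT library in turn, WT 2 h replicate 1 excepted. Eif4ebp2 was at 105, 111 and 104 CPM in WT at 0 h and 77.2, 97.4 and 102 CPM at 2 h, and at 89.99, 98.9 and 94.4 CPM, then 49.4, 81.4 and 84.4 CPM in KO. The times did not overlap and it was lower in all 6 animals, but its changes of -0.21 ± 0.17 and -0.38 ± 0.18 were not called. The count ratio per kb of Eif4ebp1 to Eif4ebp2 was 0.23 to 0.353 at 0 h and 0.439 to 1.24 at 2 h, without overlap. Eif4ebp3, and Eif4enif1, which encodes the eIF4E transporter, overlapped between times.

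Outside these complexes, Eif5a and Eif6 rose and Eif4a3 and Eif5a2 did not pass the test. Eif5a, whose hypusine-bearing product acts mainly in elongation, was at 286, 305 and 245 CPM in WT at 0 h and 400, 633 and 538 CPM at 2 h. In KO it was at 286, 252 and 263 CPM, then at 511, 638 and 502 CPM, with rises of 0.91 ± 0.18 and 1.04 ± 0.18. Its relative Eif5a2 was at 14.9, 11.9 and 16.4 CPM in WT at 0 h and 12.5, 14.4 and 14.7 CPM at 2 h, and at 14.3, 15.3 and 17.5 CPM, then 8.46, 10.9 and 18.2 CPM in KO. The per-kb ratio of Eif5a to Eif5a2 was 31.5 to 53.98 at 0 h and 58.3 to 128 at 2 h. Eif6, which keeps the large subunit from joining too early, was at 72.7, 74.6 and 60.1 CPM in WT at 0 h and 86.2, 104 and 92.2 CPM at 2 h. Its KO libraries held 71.1, 67.5 and 76.4 CPM, then 111, 118 and 95.1 CPM, and it rose by 0.45 ± 0.13 and 0.59 ± 0.13. The WT call of Eif6 was lost without WT 0 h replicate 1 or 3 or WT 2 h replicate 2 or 3. Eif4a3, the exon junction helicase, had changes of 0.29 ± 0.13 and 0.26 ± 0.13.

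Some of these counts may hold reads of neighbours, because the counting's strand setting was not given in the sources used here. In GENCODE M21, exons of Eif3d overlap the antisense Gm17638 over 2151 bases, those of Eif5b overlap Rev1 over 1643, those of Eif3j1 overlap Spg11 over 1107 and those of Eif1ad overlap Banf1 over 428. Shorter overlaps touch, among others, Eif2b4 (Snx17, 204 bases), Eif4a2 (Rfc4, 194), Eif6 (Gm16098, 138), Eif3m (Ccdc73, 82) and Eif2a (Serp1, 72). With protein-coding genes on the same strand, Eif4ebp3 shares 501 of its 744 exon bases (AC115631.1) and Eif4e3 shares 373 bases (Gm20696). Close copies such as Eif1a and Eif1ax, and members with processed pseudogenes, are uncertain too, because the treatment of reads that match several places was not given in the sources used here. By RefSeq gene positions (GRCm38), Eif2s2 lies on chromosome 2 from 154871410 to 154892906, Eif2b3 on chromosome 4 from 117019399 to 117086852 and Eif4e on chromosome 3 from 138526191 to 138559696. Eif4a1 lies on chromosome 11 from 69666936 to 69672423 and Eif4a2 on chromosome 16 from 23107468 to 23114132.

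With the animal as a block, the WT calls of Eif1ad, Eif3c, Eif4b, Eif4ebp1 and Eif6 were lost (adjusted p = 0.0567, 0.059, 0.0857, 0.0578 and 0.0513), as were the KO calls of Eif1, Eif2a, Eif2b5 and Eif3c (0.0636, 0.0626, 0.0831 and 0.081). In WT, Eif3m (0.36, adjusted p = 0.045) and Eif4g1 (0.72, adjusted p = 0.0466) were gained. With the batch number as a block no call was lost, and calls were gained for Eif2s3x (0.56, adjusted p = 0.0221), Eif3m (0.0283), Eif4e2 (0.0458) and Eif4g1 (0.0173) in WT and for Eif2s3x (0.55, adjusted p = 0.0219) and Eif4g1 (0.62, adjusted p = 0.0283) in KO.

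KO and WT were then compared at each time. At 0 h 0 of 48 members were called by edgeR, against 0% of all tested genes. An unadjusted p under 0.05 was reached by 0 members and 91 of all genes (0.743%). With no difference at all, a share near 0.05 of the genes would reach it. The fit was thus cautious here, and its 0 calls do not show that the genotypes were alike. The members' median log2 difference was 0.05. Libraries of the genotypes did not overlap for 2 of 48 members, Eif4e (higher in KO) and Eif4ebp2 (lower), against 5.85% of all tested genes (2.95% higher and 2.90% lower). The smallest p belonged to Eif2s2 (0.19 ± 0.13), Eif3e (0.17 ± 0.13) and Eif2b4 (0.15 ± 0.12). Eif3e, a scaffold subunit of eIF3, was at 169, 166 and 175 CPM in WT and 216, 161 and 195 CPM in KO, and Eif2b4 at 46.2, 40.3 and 36.4 CPM against 46.9, 43.4 and 45.6 CPM. Both overlapped, as did Eif2s2.

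At 2 h 0 of 48 members were called by edgeR, again against 0% of all tested genes, and 4 members had an unadjusted p under 0.05, as did 5.23% of all genes. The libraries were apart for 9 of 48 members, 8 higher in KO and Eif4g3 lower, against 8.22% of all tested genes (4.62% higher and 3.60% lower). The 8 were Eif1, Eif1ax, Eif2a, Eif2s2, Eif2b1, Eif3e, Eif3i and Eif3m. Eif2s2 had the smallest p, with 195, 172 and 165 CPM in KO against 99.1, 128 and 132 CPM in WT, a log2 difference of 0.56 ± 0.13 (95% interval 0.28 to 0.85, adjusted p = 0.887). The libraries were apart, and without both 2 h libraries of batch 1 the difference was 0.38. Eif3i had a difference of 0.42 ± 0.14 (adjusted p = 0.887), which was 0.18 without both batch 1 libraries. Eif3m, another eIF3 subunit gene, was at 138, 127 and 148 CPM in KO against 103, 111 and 117 CPM in WT (0.32 ± 0.12, adjusted p = 0.887). In WT at 0 h Eif3m was at 82.2, 84.9 and 91.4 CPM and in KO at 98.3, 79.8 and 104 CPM. The median difference of the members within batches was 0.06, -0.01 and 0.09 at 0 h and 0.21, 0.03 and 0.01 at 2 h for batches 1 to 3. The largest of these was thus from batch 1 at 2 h, whose KO library stands apart in Rn45s, dividing cell and neutrophil markers; their part in it was not tested.

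The response itself was compared between genotypes with an interaction term. 0 of 48 members were called by edgeR, against 0% of all tested genes. An unadjusted p under 0.05 was reached by 0 members and 40 of all genes (0.327%). This is again below a share of 0.05, so these 0 calls do not show that the responses were alike. The largest differences of the responses, KO minus WT, were those of Eif3i (0.42, 95% interval -0.01 to 0.86), Eif2s2 (0.37, -0.03 to 0.78) and Eif3k (0.37, -0.14 to 0.88). For the members called in KO alone (Eif1, Eif2a, Eif2b1, Eif2b5, Eif3i, Eif3l and Eif3m) or in WT alone (Eif4b), the difference of the responses was among those not called.

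Genes that act with these factors were read from 6 lists. Of 25 initiation partners outside the Eif names, 7 rose in WT and 7 in KO and 0 fell, with medians of 0.37 and 0.28. Bzw2, an eIF5 mimic, rose by 1.60 ± 0.23 and 1.57 ± 0.23, and Pabpc4, a poly(A)-binding protein gene, by 0.79 ± 0.17 and 0.84 ± 0.17. Ncbp2, of the nuclear cap-binding complex, rose by 0.62 and 0.71, and Abcf1, an ATP-binding partner of eIF2, by 0.65 and 0.68. Of 16 tested elongation and termination factors, 7 rose in WT and 8 in KO and 0 fell. Among them the release factor gene Etf1 rose by 0.88 ± 0.18 and 0.83 ± 0.18, the ribosome rescue gene Pelo by 1.05 ± 0.22 and 0.98 ± 0.22, and Dohh, which completes hypusine on eIF5A, by 0.53 ± 0.13 and 0.69 ± 0.13. Eef1e1, of the tRNA synthetase complex, rose by 1.18 ± 0.16 and 1.61 ± 0.16. Of 11 tested mitochondrial translation factors, 3 rose in WT, while 3 rose and Gfm2 fell in KO, with Tufm at 0.48 ± 0.11 and 0.61 ± 0.11. These counts stand against 10.7% of all tested genes higher and 9.06% lower in WT, and 14.1% and 13.0% in KO; in a list of 11 genes, 3 calls are close enough to those shares that nothing is read from them about the list.

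Among the regulators of initiation, 0 of 12 eIF2 kinases and phosphatase subunits rose and 2 fell in each genotype, with medians of 0.04 and -0.01. With 9.06% of all tested genes lower in WT and 13.0% in KO, this count is near the background and is no result about the list. Eif2ak3, the kinase PERK of the endoplasmic reticulum, fell by 1.04 ± 0.15 in WT and 1.39 ± 0.15 in KO, and Ppp1ca, a catalytic subunit of the phosphatase, fell by 0.70 ± 0.13 and 0.65 ± 0.13. Eif2ak4, the amino acid sensor GCN2, had changes of 0.46 ± 0.16 and 0.22 ± 0.16 that were not called. ATF4 is a transcription factor whose own translation is known to increase when eIF2 is phosphorylated. Of 14 genes of its programme, 6 rose in WT and 8 in KO and 0 fell, with medians of 1.03 and 1.12. Psat1, of serine synthesis, rose by 1.67 ± 0.21 and 1.66 ± 0.21, Atf5 by 1.14 ± 0.18 and 1.62 ± 0.19, Ddit3 by 1.01 ± 0.15 and 1.25 ± 0.15, and the tRNA synthetase gene Aars by 1.05 ± 0.23 and 0.99 ± 0.23. Of 22 genes of the mTORC1 axis, 5 rose and 3 fell in WT, and 5 rose and 4 fell in KO, with medians of 0.12 and 0.10, against 19.8% and 27.1% of all tested genes called in either direction. Mknk2, a kinase of eIF4E, fell by 1.26 ± 0.14 and 1.43 ± 0.14, while the Rag GTPase genes Rragd (2.65 ± 0.48 and 1.46 ± 0.46) and Rragc (0.64 ± 0.14 and 0.49 ± 0.14) and Lamtor1 (0.71 ± 0.14 and 0.70 ± 0.14) rose. Between KO and WT, 0 genes of the 6 lists were called at either time. Myc was at 70.1 to 125 CPM in the 0 h libraries and 632 to 1273 CPM in the 2 h libraries.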

How the data were processed

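Poly(A) RNA from 12 libraries of sorted splenic FO B cells was prepared with the NEBNext Ultra RNA kit, per the labels' protocols, and reads were aligned with STAR to mm10, per the submitters' processing notes. The version of STAR, and the tool, strand setting and gene models used for counting, were not given in the sources used here. Values deposited by the authors were raw counts per gene symbol, and the analysis started from them.

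The filterByExpr function, given the 4 groups, kept 12242 of 24046 genes. TMM factors (0.522 to 1.20) scaled the library sizes. One quasi-likelihood model of edgeR 4.0.16 (R 4.3.3), with 1 mean per group and no block, gave all 5 contrasts. P values were two-sided and adjusted with the Benjamini-Hochberg method over all tested genes, with a threshold of 0.05 for calls. Errors of log2 changes are SE, and intervals are 95% intervals from the model's t quantiles. P values measure the spread between libraries within groups, pooled over the 4 groups. The 0 h and 2 h libraries of an animal entered this model as if independent. Only the alternative with the animal as a block measured the spread of the change between animals. CPM are TMM-scaled, and levels per kb divide them by merged exon length in GENCODE M21. Within-animal changes used a pseudocount of 0.5 CPM. The model was tested on simulated counts. Promoter windows came from RefSeq (GRCm38.p6), which held 38 members.

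Values by library are given for up to 4 called members of each complex with the largest change, for related pairs and for up to 3 members with the smallest p between genotypes, plus a few others chosen after their values were seen (Eif2s3y, Eif3a and Eif3f, Gfm2). From each other list up to 4 genes with the smallest p in WT are named. The members, the 6 pathway lists and the 8 marker lists were chosen with earlier results of these data known. The numbers paired the samples, because both times of an animal share a library number and the labels mark the batch. Same-animal deviations from the group means correlated at -0.37 to 0.57 across genes, with both batch 1 animals negative (KO -0.37, WT -0.16). Libraries with unlike numbers gave -0.75 to 0.60, so the correlations do not bear out the pairing, which rests on the labels. No 2 libraries of a group agreed within sampling noise (chi-square per degree of freedom 13.1 to 809). Alternatives were RLE factors, other filters, fits of only the groups compared, blocks, DESeq2 1.42.0, Rn45s left out and libraries left out.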

Additional observations from a re-analysis of the deposited data

How the results depend on the processing

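In WT the members called numbered 14 (no filter on low counts) to 27 (DESeq2 with the batch as a block, or without both 2 h libraries of batch 1) outside the left-out single libraries, and in KO 16 (fit of only the groups compared) to 31 (DESeq2 with the batch as a block). A set of 12 members was called in both genotypes under every alternative run: Eif1a, Eif1ax, Eif2b3, Eif2s1, Eif2s2, Eif3a, Eif3d, Eif3g, Eif3j, Eif4a1, Eif4e and Eif5a. Calls of a lower level appeared under some alternatives for Eif3f (KO), Eif4e3 (both genotypes), Eif4ebp2 (KO, DESeq2 with the batch as a block, -0.40, adjusted p = 0.0198) and Eif5a2 (KO, without KO 2 h replicate 3, -0.68, adjusted p = 0.0317). No member changed direction while called in any of the 5 comparisons.

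Fits that paired the samples gave 23 members with the batch as a block and 16 with the animal as a block in WT, 14 of the latter shared with the 19 reported, and 27 and 21 in KO. The replicate block changed no other call than those named with the animal or the batch as a block in the results, and between genotypes 0 members were called with it.

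A fit of only the KO groups called 16 members and 1626 of all genes, against 25 and 3316, and one of only the WT groups called 25 members, 24 higher and 1 lower (Eif4e3), and 3295 genes, against 19 and 2419; the cause was not tested. Between genotypes, edgeR called 0 genes in every alternative, and DESeq2 called 1 gene at 0 h and 2 at 2 h, or 4 and 19 with the batch as a block; 0 of these were members, and the cause was not tested.

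Leaving out each library in turn gave 12 to 28 members and 1349 to 3625 genes in WT, and 19 to 30 members and 2281 to 3862 genes in KO. The lowest gene count in WT came without WT 2 h replicate 2 (1349), and the counts without WT 0 h replicate 1 (1529), WT 0 h replicate 3 (1492) and WT 2 h replicate 3 (1551) were also over 1.5 times below 2419. The highest counts in both genotypes came without KO 2 h replicate 1. All counts between genotypes and of the difference of the responses were 0 to 0. Where leaving out a library left a group of 2, its spread was estimated with the other groups. RLE and DESeq2 scaling moved the median of all genes by under 0.1. With 3 animals a genotype, the precision of a single gene is that of its SE.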
